A study of Mus musculus with 55 samples.

Results

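The Wnt ligands, their Frizzled receptors and their secreted antagonists were followed as 38 genes in mouse islets that lacked the Polycomb subunit Eed in β cells. The genes were taken by name: 19 Wnt ligands, the 10 Frizzled receptors and 9 secreted antagonists (Sfrp1, Sfrp2, Sfrp4, Sfrp5, Frzb, Dkk1, Dkk2, Dkk3 and Wif1), out of 47937 genes counted. All 38 were in the count table. The bulk RNA-seq held 16 libraries of hand-picked, cultured islets of male C57B6/J mice: 3 wild-type (WT), 3 heterozygous (HET) and 3 βEedKO (KO) libraries at 8 weeks of age, and 3 WT, 2 HET and 2 KO libraries at 25 weeks. In βEedKO mice both floxed Eed alleles were deleted by RIP-cre, a Cre driven by an insulin gene promoter, so that the non-β cells of an islet kept Eed. Several animals were pooled for each KO library at 25 weeks. Levels are given as CPM, read counts per gene relative to the TMM-scaled total of the library.

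Wnt proteins are secreted, lipid-modified signals that bind Frizzled receptors on the cell surface. The canonical branch stabilises β-catenin, which acts on target genes with TCF and LEF factors, and other branches steer cell polarity and calcium. Secreted Frizzled-related proteins (Sfrp genes and Frzb) and Wif1 bind Wnt ligands outside the cell, whereas Dkk1 and Dkk2 bind the Lrp co-receptors. Many Wnt genes are developmental genes with CpG-rich start sites, a class that the Polycomb repressive complex PRC2, which contains Eed, marks with H3K27me3.

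Chromatin of WT islets had been divided by the authors into states lettered A to X. States A and B mark active start sites, states K, L and M are bivalent (H3K4me3 together with H3K27me3), and N and O are Polycomb-repressed. The start sites of 24 of the 38 genes (63.2%) lay in a bivalent state, against 14.1% of all 42906 counted autosomal genes and 20% of the 20447 protein-coding ones. Of these 24, 15 lay in state L (Wnt2b, Wnt5a, Wnt6, Wnt7a, Wnt9a, Wnt9b, Wnt10b, Wnt11, Fzd2, Fzd9, Fzd10, Sfrp1, Sfrp2, Sfrp5 and Wif1) and 9 in state M (Wnt1, Wnt3, Wnt3a, Wnt7b, Wnt10a, Wnt16, Sfrp4, Dkk1 and Dkk3). Wnt4, Fzd3, Fzd4, Fzd5 and Fzd8 started in state A, and Wnt5b, Fzd1, Fzd6, Fzd7 and Frzb in state B. For Wnt5b and Fzd6 the state with the largest coverage within 500 bp on either side was the bivalent state L. Wnt8a and Wnt8b started in state N, and Wnt2 and Dkk2 in state R, a weak Polycomb state. The most frequent state over the gene body was L, M, N or O for 29 of the 38. The segmentation gives a letter and no level, from averaged replicates, so these counts carry no error.

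The start sites of 6 genes are printed because the results below turn on them: Wnt9a, Wif1 and Fzd10 from state L and Wnt16 from state M, all near silence in WT islets, and Wnt4 and Frzb from the active states, the highest of the ligands and of the antagonists. Each run holds 250 bases before and 50 bases after a RefSeq start on GRCm38.p6, 5′ to 3′ on the strand of the gene, with CpG dinucleotides in capitals.
Wnt9a, chr11:59306680-59306979, plus strand: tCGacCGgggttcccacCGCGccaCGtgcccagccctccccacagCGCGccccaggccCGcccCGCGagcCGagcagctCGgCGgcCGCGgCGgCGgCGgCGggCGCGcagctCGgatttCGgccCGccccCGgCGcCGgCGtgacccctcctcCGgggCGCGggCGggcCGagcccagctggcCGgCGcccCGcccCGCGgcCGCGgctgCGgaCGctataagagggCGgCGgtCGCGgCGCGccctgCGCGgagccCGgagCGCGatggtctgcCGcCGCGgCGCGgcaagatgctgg
Wif1, chr10:121033754-121034053, plus strand: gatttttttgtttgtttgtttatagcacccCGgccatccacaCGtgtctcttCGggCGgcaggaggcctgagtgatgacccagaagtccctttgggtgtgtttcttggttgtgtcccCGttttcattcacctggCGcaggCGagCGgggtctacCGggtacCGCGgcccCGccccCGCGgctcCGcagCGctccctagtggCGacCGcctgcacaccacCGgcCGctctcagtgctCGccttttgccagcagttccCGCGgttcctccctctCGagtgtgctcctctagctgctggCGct
Fzd10, chr5:128600856-128601155, plus strand: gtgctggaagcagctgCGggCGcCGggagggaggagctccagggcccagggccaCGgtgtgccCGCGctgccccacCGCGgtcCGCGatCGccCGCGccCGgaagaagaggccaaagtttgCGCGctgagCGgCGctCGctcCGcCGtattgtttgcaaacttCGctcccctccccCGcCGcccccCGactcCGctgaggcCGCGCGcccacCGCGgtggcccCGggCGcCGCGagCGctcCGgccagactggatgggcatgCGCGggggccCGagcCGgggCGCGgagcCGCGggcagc
Wnt16, chr6:22287977-22288276, plus strand: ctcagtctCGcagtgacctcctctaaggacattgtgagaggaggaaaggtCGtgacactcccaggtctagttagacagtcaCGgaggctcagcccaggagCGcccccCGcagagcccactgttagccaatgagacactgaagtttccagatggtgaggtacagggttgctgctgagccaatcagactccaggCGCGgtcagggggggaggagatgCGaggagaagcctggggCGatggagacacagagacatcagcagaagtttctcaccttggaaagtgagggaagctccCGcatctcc
Wnt4, chr4:137277385-137277684, plus strand: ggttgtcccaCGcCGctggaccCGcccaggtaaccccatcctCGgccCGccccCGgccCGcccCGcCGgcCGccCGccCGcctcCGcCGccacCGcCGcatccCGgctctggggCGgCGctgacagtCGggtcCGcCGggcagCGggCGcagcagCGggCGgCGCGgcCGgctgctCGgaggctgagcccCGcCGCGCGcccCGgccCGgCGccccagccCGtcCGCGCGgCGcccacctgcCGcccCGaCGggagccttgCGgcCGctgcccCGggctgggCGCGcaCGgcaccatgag
Frzb, chr2:80447347-80447646, minus strand: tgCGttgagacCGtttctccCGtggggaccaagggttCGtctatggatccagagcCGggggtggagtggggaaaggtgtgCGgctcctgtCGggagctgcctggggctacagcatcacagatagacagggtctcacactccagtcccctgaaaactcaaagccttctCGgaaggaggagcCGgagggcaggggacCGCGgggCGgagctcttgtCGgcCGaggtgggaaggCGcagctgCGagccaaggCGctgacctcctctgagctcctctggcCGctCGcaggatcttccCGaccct
Such windows were found for 27 of the 38 genes. They held 6 to 58 CpG dinucleotides with a median of 27, against a median of 7 over 32851 windows of the same length. The median was 29 for the 17 windows of genes in a bivalent state and 32 for the 7 of genes in state A or B (9 to 58 and 16 to 51), so that the ranges overlapped. Among the 6 printed, Wnt9a held 58, Wnt4 51, Fzd10 45, Wif1 25, Frzb 20 and Wnt16 10. The RefSeq start lay 262 bp from the start used to read the state for Fzd10, 229 bp for Frzb and 146 bp for Wnt4, and at most 44 bp for Wnt9a, Wif1 and Wnt16.

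The library totals ran from 4645393 counts (WT replicate 2 at 25 weeks) to 22925359. Eed itself had 19.3 to 33.1 CPM in the 6 WT libraries and 13.4 to 15.6 CPM in the 5 KO libraries. The summed level of 8 β cell markers was 122324 to 218493 CPM in WT libraries, and 13874 and 17204 CPM in the KO libraries at 25 weeks. Exocrine RNA differed widely between libraries: the summed acinar markers had 290990 CPM in KO replicate 2 and 9373 CPM in KO replicate 3 at 25 weeks, and 22023 to 159335 CPM in WT libraries of that age. At 8 weeks, replicates 1 of WT and KO and all HET libraries had low interferon-induced genes (16.4 to 35.2 CPM summed) and the other WT and KO libraries high ones (1882 to 3122 CPM). The second HET library at 8 weeks also stood apart, with Fzd4 at 72.0 CPM against 9.27 and 9.71 CPM in the other two.

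**Figure D1:**
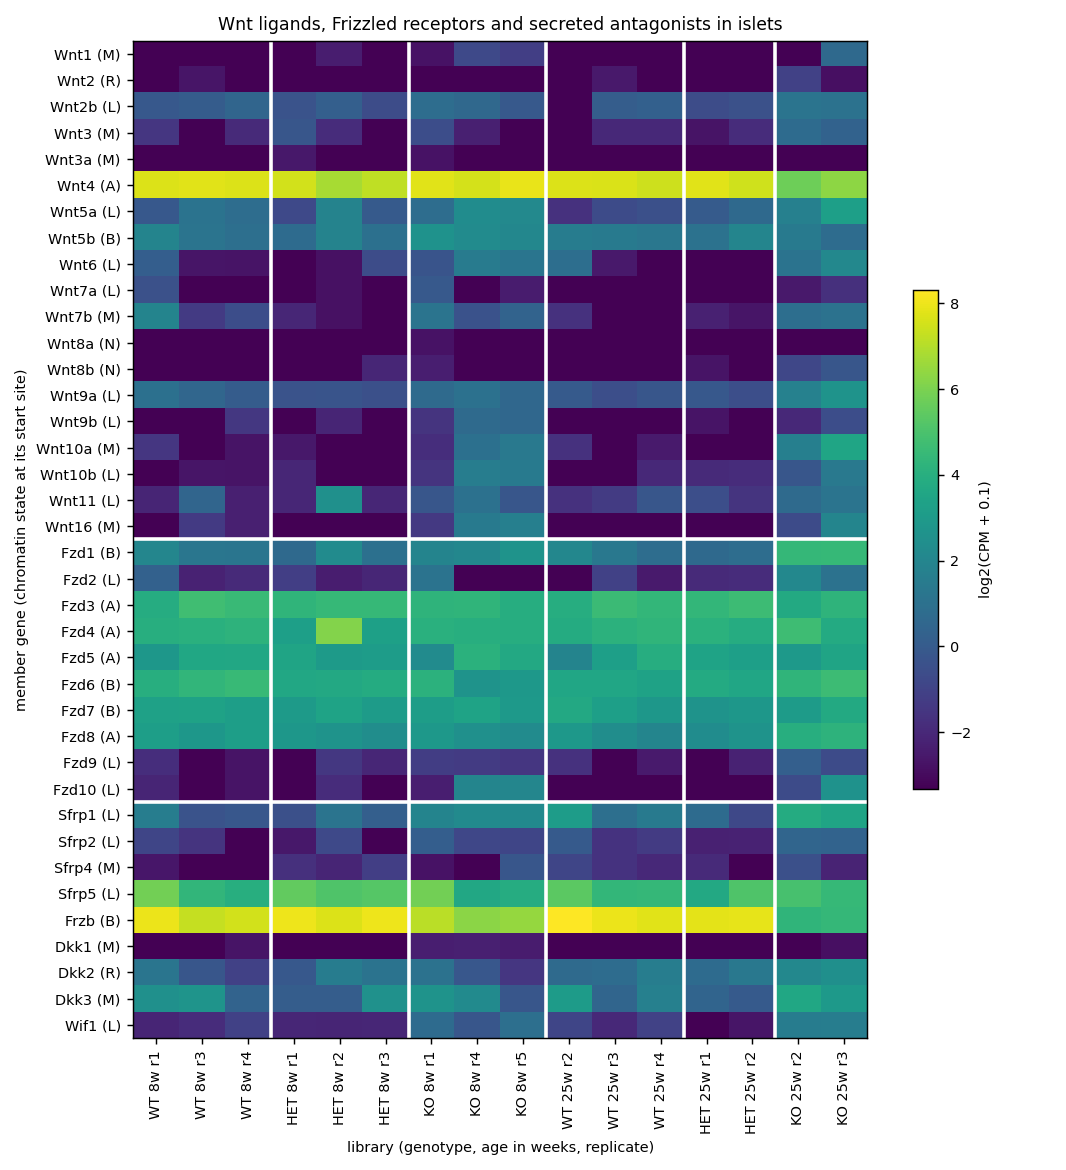
Level of each of the 38 genes (rows, with the chromatin state at the start site in brackets) in each of the 16 libraries (columns, by genotype, age in weeks and replicate), as log2(CPM + 0.1). White lines part the groups and the ligands, receptors and antagonists. Wnt4 and Frzb are bright in all libraries but less so in the KO libraries at 25 weeks, where Wnt4 is still the highest ligand. Most other ligands are dark outside the KO libraries.

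In WT islets the Wnt repertoire was narrow. Per kilobase of exon, Wnt4 took 92.6% to 96.7% of the summed ligand level in the 6 WT libraries, and Frzb 69.8% to 86.1% of the summed antagonist level. No receptor dominated in this way: in WT islets at 25 weeks the mean levels per kilobase were 2.55 ± 0.416 for Fzd4, 2.32 ± 0.177 for Fzd6 and 2.17 ± 0.637 for Fzd7 (CPM per kb, SD, n = 3), which did not differ beyond their spread. Fzd3 (1.56 ± 0.354), Fzd5 (1.36 ± 0.834), Fzd8 (0.903 ± 0.281) and Fzd1 (0.655 ± 0.299) followed, each within the spread of its neighbour. In the KO libraries at 25 weeks the share of Wnt4 was 63.9% and 56.7%, Sfrp5 had replaced Frzb as the highest antagonist, and Fzd1 was the highest receptor, at 5.16 ± 0.189 CPM per kb (SD, n = 2). Fzd1 took only 23.6% and 21.8% of the summed receptor level per kilobase. Before scaling by exon length, Fzd6 had 19.3 and 25.2 CPM against 21.1 and 22.2 CPM for Fzd1, so these receptors lay close together. Of the 38 genes, 14 or 15 reached 1 CPM in each WT library at 25 weeks, and 26 and 29 in the KO libraries.

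The main comparison asked which of these genes changed in βEedKO islets at 25 weeks. A gene was called when its adjusted p was under 0.05 in edgeR's quasi-likelihood test over 18685 genes. Of the 38 genes 30 could be tested and 8 were called: Wnt5a, Wnt9a, Wnt10a, Fzd1, Fzd8 and Wif1 were higher, and Wnt4 and Frzb lower. Over all genes 6.6% were called in this comparison, 4.58% higher and 2.02% lower. The filter on low counts bears on this count, since 13 of the 30 passed it only with the KO libraries in the table. Among the other 17, which also passed in WT libraries alone, 6 were called (4 higher), against 5.66% of all such genes. Wnt10a and Wif1 were the called genes among the 13. Exons of 6 members (Wnt5a, Wnt7b, Wnt11, Fzd5, Fzd6 and Sfrp2) overlap another gene on the opposite strand, and since it is not stated whether strand was counted, reads of the pair cannot be told apart. Over all genes the median log2 fold change at 25 weeks was 0.03 with TMM scaling and 0.27 with library size alone.

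Wnt4, a ligand of both canonical and non-canonical signalling known in islets from mature β cells, lies on chromosome 4 from 137277489 to 137299726 (ENSMUSG00000036856.4, GRCm38). At 25 weeks it had 208, 203 and 172 CPM in WT libraries, 222 and 176 CPM in HET libraries, and 52.7 and 80.4 CPM in KO libraries. The KO libraries lay below all other 14 libraries, of which the second HET library at 8 weeks was the lowest at 110 CPM. The fold change was -1.60 ± 0.25 (log2, SE; adjusted p = 0.00468). The fall was not past the threshold with library size alone (-1.27, adjusted p = 0.155) or without KO replicate 2 (-1.35, adjusted p = 0.0578).

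Frzb (also Sfrp3, ENSMUSG00000027004.3, chromosome 2 from 80411970 to 80447625) binds Wnt ligands through a Frizzled-like domain. It had 318, 248 and 220 CPM in WT libraries at 25 weeks, 228 and 239 CPM in HET libraries, and 19.7 and 21.4 CPM in KO libraries. The fold change was -3.72 ± 0.35 (log2, SE; adjusted p = 0.000356). In bulk islets, fewer β cells and less RNA of these genes per cell cannot be told apart. All 8 β cell markers were lower in both KO libraries than in all WT libraries of that age, where 15.9% of all genes were. Of the 8 markers 7 passed the test, and the other, Ins2, had an adjusted p of 0.0626.

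Wnt5a, the best-known non-canonical ligand, had 0.218, 0.527 and 0.619 CPM in WT libraries at 25 weeks, and 3.27 and 9.45 CPM in KO libraries. Wnt9a, a canonical ligand of limb and joint development, had 0.872, 0.602 and 0.774 CPM in WT libraries, and 3.35 and 6.26 CPM in KO libraries. Wnt10a, a ligand of skin and tooth development, had 0.218, 0 and 0.0774 CPM, and 3.20 and 11.2 CPM. For each of these ligands the KO libraries lay above each WT and HET library of that age, with KO replicate 3 higher than replicate 2. The fold changes were 3.63 ± 0.71 for Wnt5a (log2, SE; adjusted p = 0.0134), 2.64 ± 0.49 for Wnt9a (adjusted p = 0.0105) and 6.47 ± 1.43 for Wnt10a (adjusted p = 0.0247). Since Wnt10a had 2 reads over the 3 WT libraries and 320 over the 2 KO libraries, its ratio is better given as 130, with a 95% interval for counting error from 35.7 to 1080.

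Of the receptors, Fzd1 had 4.14, 2.41 and 1.70 CPM in WT libraries at 25 weeks, and 21.1 and 22.2 CPM in KO libraries, the highest levels in any library. Fzd8 had 7.20, 5.12 and 3.87 CPM, and 15.5 and 18.3 CPM. Neither gene's WT and KO libraries overlapped. The fold changes were 2.96 ± 0.43 for Fzd1 (log2, SE; adjusted p = 0.00359) and 1.61 ± 0.32 for Fzd8 (adjusted p = 0.0137). Both start sites were in an active state in WT islets, B for Fzd1 and A for Fzd8.

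Wif1, Wnt inhibitory factor 1, had 0.436, 0.151 and 0.387 CPM in WT libraries at 25 weeks, and 2.89 and 2.91 CPM in KO libraries. Its fold change was 3.15 ± 0.69 (log2, SE; adjusted p = 0.0235). It started in the bivalent state L, as printed above.

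**Figure D2:**
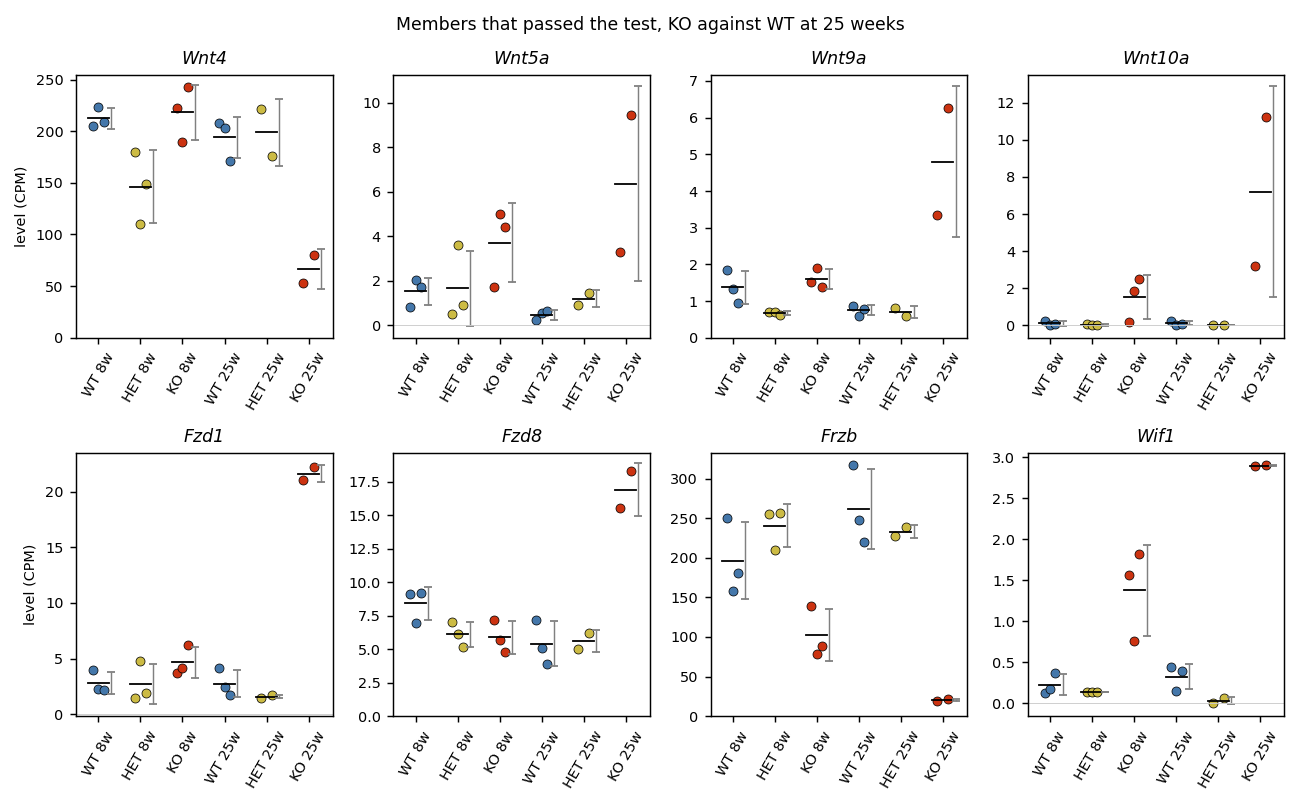
Level in CPM (linear axes from 0) of the 8 genes called at 25 weeks, in all 6 groups of islet libraries. Each point is 1 library, black lines are group means and grey bars are ± 1 SD; Wnt4 and Frzb drop in the KO libraries at 25 weeks and the other 6 genes stand highest there.

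The calls differed in how far they rested on single libraries. Fzd1 and Frzb were called in all 19 alternatives. Wnt5a, Wnt9a, Wnt10a, Fzd8 and Wif1 each lost the call without WT replicate 3 (adjusted p 0.0666 to 0.114), without WT replicate 4 (0.0514 to 0.104) and without KO replicate 3 of 25 weeks (0.104 to 0.159). Fzd8 and Wif1 also lost it without KO replicate 2 (adjusted p 0.0597 and 0.105). Against the HET libraries of 25 weeks in place of WT, Wnt5a lost the call (2.41, adjusted p = 0.111). None changed direction in these fits: the lowest fold changes without 1 library were 2.68 for Wnt5a, 2.12 for Wnt9a, 5.27 for Wnt10a, 1.41 for Fzd8 and 2.75 for Wif1 (log2). Same-numbered WT and KO libraries of an age deviated in the same direction, but so did some with different numbers. With the replicate number as a block, 4 of the 38 genes were called (Wnt5a and Fzd1 higher, Wnt4 and Frzb lower), against 5.5% of all genes. With this block the fold changes were 2.66 for Wnt9a (adjusted p = 0.0941), 6.61 for Wnt10a (0.116), 1.43 for Fzd8 (0.0631) and 3.44 for Wif1 (0.111). WT replicate 4 of 25 weeks has no KO library of its number and so did not enter the blocked fold changes at that age.

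Markers of other cell types also differed between WT and KO libraries at 25 weeks. The summed level of 8 mesenchyme and stellate markers was 382 and 276 CPM in the KO libraries and 90.04 to 131 CPM in the WT libraries at 25 weeks. All 8 markers were higher in both KO libraries than in all WT libraries, where 24.7% of all genes were, and Col1a1, Col1a2, Dcn and Pdgfra passed the test. None was at 0 in any library. Of 5 duct markers, Krt19 and Sox9 passed as higher, and Krt7 was lower in both KO libraries (104 and 125 CPM against 168 to 218 CPM in WT) without passing (adjusted p = 0.0588). Krt7 made up much of the summed duct level, which was 228 and 254 CPM in KO and 201 to 240 CPM in WT libraries.
Of 5 macrophage and leukocyte markers, all had a positive fold change, 3 did not overlap and Ptprc passed, with 29.4 and 30.4 CPM in KO and 6.32 to 10.7 CPM in WT libraries. Their sum was 344 and 102 CPM in KO and 56.6 to 113 CPM in WT libraries. Of 4 alpha cell markers 3 were higher in both KO libraries and Irx2 passed, with 32.6 and 34.1 CPM against 5.18 to 11.1 CPM. Their sum was 12445 and 11803 CPM in KO and 8223 to 9275 CPM in WT libraries. No marker of endothelium (6), delta and PP cells (3), acinar cells (5) or Schwann and glial cells (4) passed. The part of these cells in the levels of Wnt5a, Fzd1 and the other genes was not tested. KO replicate 2, which had the highest acinar level of all libraries, also had more summed mesenchyme and macrophage markers than replicate 3. It had less of the summed β cell and duct markers, and less Wnt5a, Wnt9a and Wnt10a. What set these 2 libraries apart was not tested.

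Further ligands had few or no reads in WT libraries and more in the KO libraries, and did not pass the test or could not be tested. Wnt16 had 0 reads in the 3 WT libraries and both HET libraries at 25 weeks, and 7 and 94 reads in the KO libraries, at least 27.4-fold higher against a floor of 3 reads over the WT group (adjusted p = 0.0643). Wnt7b had 1 read in WT and 73 in KO libraries, a ratio of 59.3 (95% interval 10.3 to 2370, adjusted p = 0.0594). Wnt10b had 2 and 72 reads, a ratio of 29.2 (7.81 to 246, adjusted p = 0.0795).
Wnt1, the founding ligand of the family, could not be tested: it had 0 reads in WT libraries, and 0 and 37 reads in the KO libraries, at least 10-fold higher. Wnt8b (6 and 19 reads, at least 6.77-fold) and Wnt9b (2 and 14 reads, at least 4.33-fold) were also at 0 in WT libraries, and Wnt7a had 1 and 5 reads (at least 1.62-fold). Wnt9b was tested and did not pass, whereas Wnt8b and Wnt7a could not be tested. KO replicate 3 had more reads than replicate 2 for each gene given here with its reads per library. Intervals and floors cover counting error only.

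Wnt3, Wnt6, Wnt2b and Wnt11 had group means of 0.102, 0.607, 0.687 and 0.431 CPM in WT libraries at 25 weeks, and 1.38, 3.15, 2.07 and 1.81 CPM in KO libraries. Both KO libraries lay above all WT libraries for each, as for 24.7% of all genes, and none passed the test (adjusted p 0.182 to 0.366). Wnt5b, the ligand whose start was in state B, had 2.57 ± 0.257 CPM in WT (SD, n = 3) and 2.14 ± 0.741 CPM in KO libraries (SD, n = 2), and its libraries overlapped. Wnt2 had at most 5 reads in any library. Wnt3a was listed with 2 reads and Wnt8a with 1 read over all 16 libraries, so that neither could be followed at this depth.

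None of the other receptors passed the test. Fzd10 had 0 reads in the 3 WT and 2 HET libraries at 25 weeks, and 7 and 151 reads in the KO libraries, at least 42.8-fold higher over the group (adjusted p = 0.0712), with nearly all reads in KO replicate 3. Fzd9 had 2 reads in WT and 27 in KO libraries, a ratio of 11 (95% interval 2.76 to 95.2). Fzd2 had 0, 0.376 and 0.0774 CPM in WT libraries, and 4.19 and 1.98 CPM in KO libraries (adjusted p = 0.241).
These 3 receptors were the ones with a bivalent start. Of those with an active start, Fzd6 had 11.8, 11.6 and 10.2 CPM in WT, and 19.3 and 25.2 CPM in KO libraries (log2 fold change 0.94 ± 0.39, adjusted p = 0.211). Fzd3, Fzd4, Fzd5 and Fzd7 overlapped between WT and KO, with fold changes of -0.38 ± 0.32, 0.15 ± 0.29, -0.07 ± 0.61 and 0.09 ± 0.32 (log2, SE; adjusted p 0.566 to 0.967). The sign of Fzd5 turned with library size alone and with the block, and that of Fzd7 with the block.

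Among the other antagonists, Sfrp1 had 8.50, 1.81 and 2.55 CPM in WT libraries at 25 weeks, and 14.3 and 11.1 CPM in KO libraries (log2 fold change 1.56 ± 0.70, adjusted p = 0.243). Against the HET libraries (1.58 and 0.467 CPM) its fold change was 3.62 and passed the test (adjusted p = 0.028), as did 8.36% of all genes. Sfrp5, an antagonist that is high in islets, had 41.2, 20.8 and 21.7 CPM in WT, and 30.2 and 21.8 CPM in KO libraries (-0.15 ± 0.70, adjusted p = 0.941), and its sign turned with library size alone and against HET libraries.
Dkk2 had 4.19 and 5.49 CPM in KO libraries against 1.53 to 2.94 CPM in WT libraries, and Sfrp2 1.29 and 1.21 CPM against 0.226 to 0.872 CPM. Dkk3 overlapped, with 12.2 and 7.59 CPM in KO and 1.28 to 8.29 CPM in WT libraries. None of these passed the test. Sfrp4 and Dkk1 had too few reads to be tested, at most 9 and 2 in any library.

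**Figure D3:**
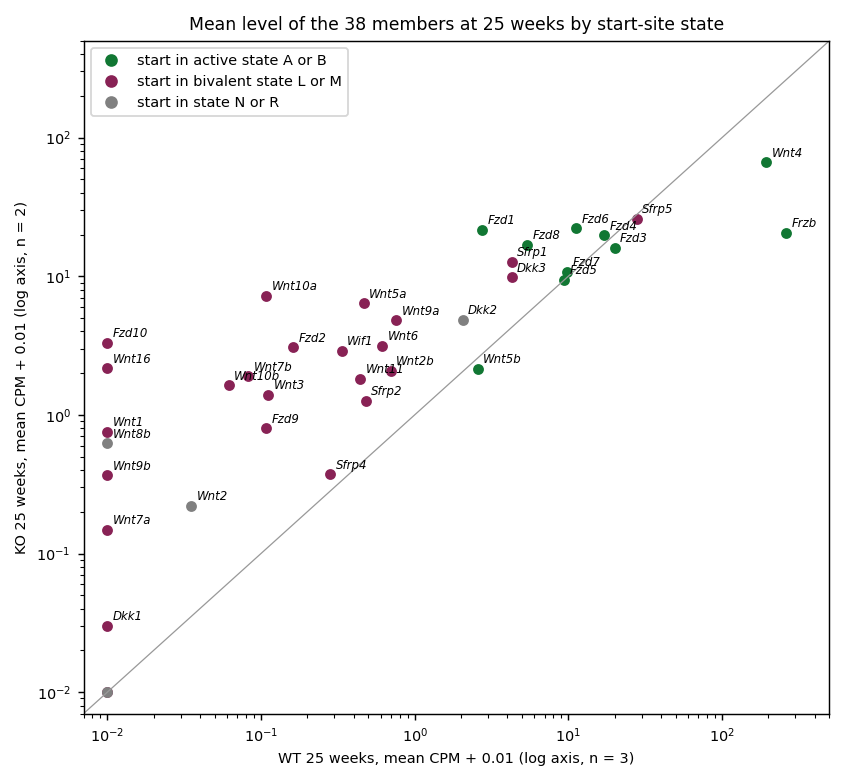
Mean level at 25 weeks of the 38 genes in WT islets (horizontal) and KO islets (vertical), as CPM + 0.01 on log axes, coloured by the chromatin state at the start site in WT islets. The diagonal marks equal levels: Frzb and Wnt4 lie below it, most genes with a bivalent start lie on the left and above it, with Sfrp5 (27.9 CPM in WT), Sfrp1 and Dkk3 further right, and Wnt3a and Wnt8a coincide at the lower left corner.

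Read by start-site state, 4 of the 19 tested genes with a bivalent start were called higher at 25 weeks (Wnt5a, Wnt9a, Wnt10a and Wif1) and none lower, against 17.6% higher among all tested genes of states L and M. The members' share of 21.1% is near that background. All 13 members that passed the count filter only with the KO libraries are among these 19, Wnt10a and Wif1 included. The filter thus favoured higher over lower calls among them. Of the 10 genes with an active start, Fzd1 and Fzd8 were called higher and Wnt4 and Frzb lower, against 1.07% higher and 2.64% lower among all tested genes of states A and B.

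At 8 weeks, when the islets were compared in the same way, no member was called. edgeR called 0 of the 30 tested (0.434% of all genes), 10 had an unadjusted p under 0.05 (7.87% of all genes), and DESeq2 called 4 (Wnt10b, Fzd10 and Wif1 higher, Frzb lower; 2.1% of all genes). Wif1 had 0.127, 0.174 and 0.371 CPM in WT libraries at 8 weeks and 1.57, 0.752 and 1.82 CPM in KO libraries, without overlap (log2 fold change 2.55 ± 0.63, adjusted p = 0.162). Frzb had 251, 158 and 181 CPM in WT and 140, 78.9 and 88.6 CPM in KO libraries, again without overlap (-0.94 ± 0.27, adjusted p = 0.267). Against HET libraries both passed the test, as did 4.74% of all genes. All HET libraries of this age had low interferon-induced genes and KO replicates 4 and 5 high ones. For replicates 4 and 5, genotype and this split cannot be told apart with that control, and Frzb was highest in replicate 1 of WT and of KO. KO replicate 1, low in interferon-induced genes like the HET libraries, had 1.57 CPM of Wif1 against 0.133 to 0.139 CPM in HET libraries. Its Frzb level was 140 CPM against 210 to 256 CPM, and this single library was not tested alone. Wnt4 had 205, 224 and 209 CPM in WT and 223, 190 and 242 CPM in KO libraries, so that its fall was not seen at this age (0.04 ± 0.21, adjusted p = 0.989).
Fzd1 and Fzd8, the receptors called at 25 weeks, had 3.65 to 6.23 and 4.76 to 7.21 CPM in KO libraries at 8 weeks, against 2.17 to 3.93 and 6.98 to 9.16 CPM in WT libraries. The WT and KO libraries overlapped for both. Wnt5a (0.825 to 2.04 CPM in WT, 1.71 to 5.02 in KO) and Wnt9a (0.953 to 1.84 CPM in WT, 1.39 to 1.91 in KO) overlapped too. Sfrp1 did not overlap, with 0.698 to 2.92 CPM in WT and 3.65 to 4.72 CPM in KO libraries (1.57 ± 0.66, adjusted p = 0.589). Of the 30 tested members, 5 lay higher and 1 lower without overlap at 8 weeks, against 6.54% and 4.86% of all genes. The 8 mesenchyme markers summed to 85.2 to 228 CPM in KO and 44.1 to 117 CPM in WT libraries at 8 weeks, and none of them was called.

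**Figure D4:**
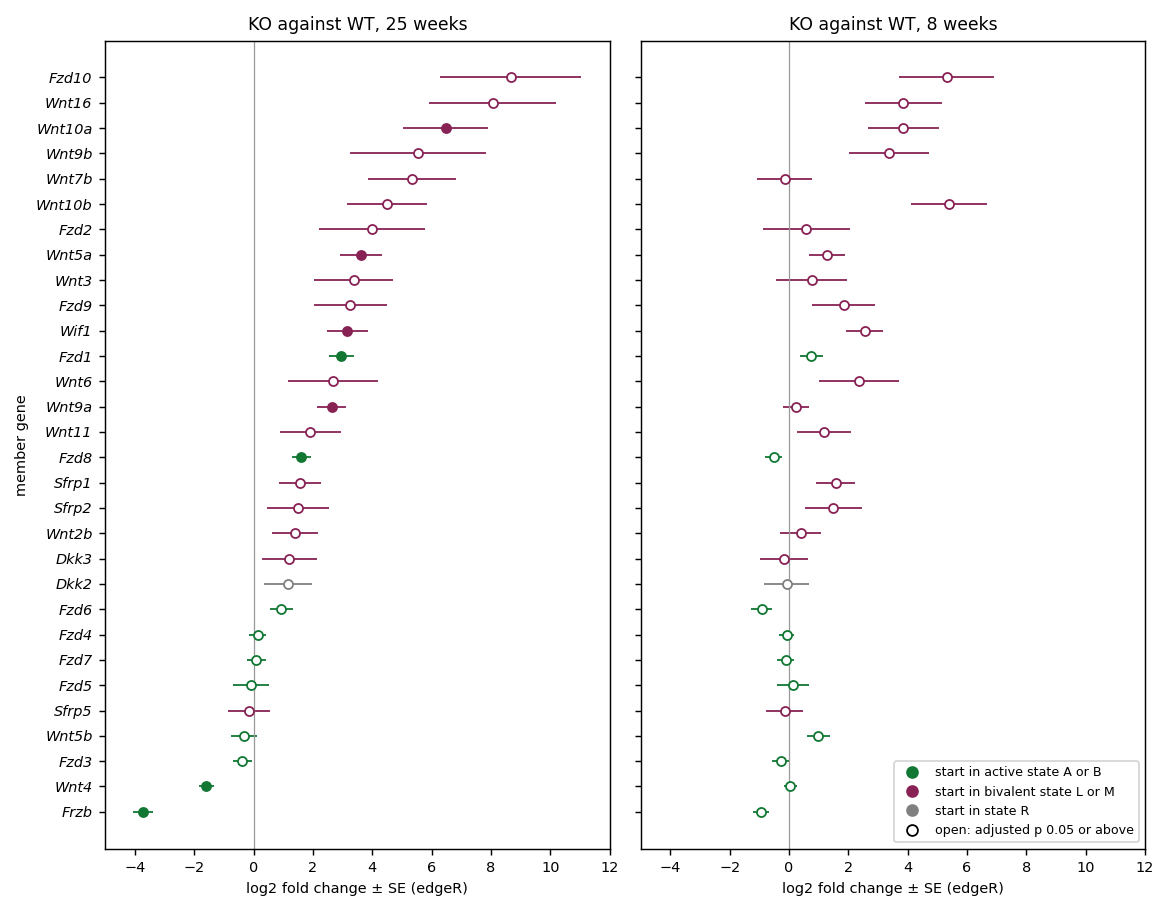
Log2 fold change ± SE of KO against WT for the 30 tested genes at 25 weeks (left) and 8 weeks (right), ordered by the value at 25 weeks and coloured by start-site state. Filled points have an adjusted p under 0.05; all 8 are at 25 weeks, and the 11 largest estimates there are of genes with a bivalent start. Genes that passed the count filter only with the KO libraries all have a bivalent start, which bears on this order. The 2 panels use different libraries.

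The KO libraries at 8 weeks were not alike. Wnt10a had 0.190 CPM in KO replicate 1, and 1.86 and 2.51 CPM in replicates 4 and 5. Wnt10b had 0.237 CPM, and 2.91 and 2.60 CPM, in the same order. Wnt16 had 0.285 CPM, and 2.71 and 3.12 CPM.
For each of these, replicate 1 lay near the 6 WT and HET libraries, none of which passed 0.291 CPM. Wnt9b showed the same order (0.237, 1.51 and 1.39 CPM), as did Fzd10, the receptor (0.0949, 3.81 and 3.89 CPM). Over the group, Wnt10b had 93 reads in KO and 2 in WT libraries, a ratio of 45.9 (95% interval 12.3 to 384), and Fzd10 123 and 3 reads, a ratio of 40.4 (13.5 to 199). These 5 genes were picked after their values were seen.
KO replicate 1 was also the KO library with low interferon-induced genes, so that the library set and the level of these genes cannot be told apart with 3 KO libraries. Sfrp5 followed the same split in both genotypes: it had 57.6 and 56.7 CPM in replicates 1 of WT and KO, and 12.4 to 20.4 CPM in the other WT and KO libraries. Fzd6 had 17.5 CPM in KO replicate 1, and 6.27 and 7.18 CPM in replicates 4 and 5, against 15.7 to 22.5 CPM in WT. Without KO replicate 1, 2 of the 38 genes were called at 8 weeks (0.735% of all genes), Wnt10b as higher and Fzd6 as lower (log2 fold change of Fzd6 -1.53, adjusted p = 0.0327). Without replicates 1 of both genotypes, an alternative chosen after the data were seen, Fzd6 alone was called (0.468% of all genes).

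**Figure D5:**
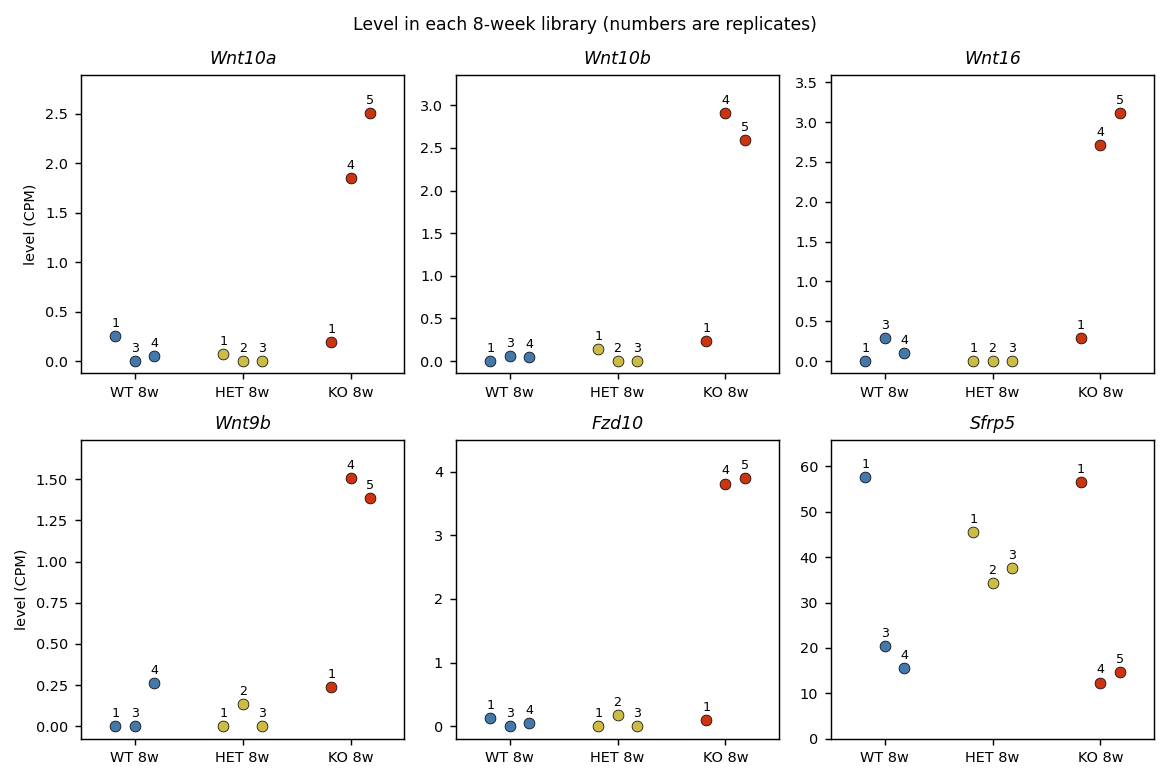
Level in CPM (linear axes) of 6 genes in each of the 9 libraries at 8 weeks, with the replicate number beside each point. Replicate 1 of the KO group lies with the WT and HET libraries for Wnt10a, Wnt10b, Wnt16, Wnt9b and Fzd10, while replicates 4 and 5 lie above; Sfrp5 is highest in replicates 1 of WT and KO.

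In edgeR's test of the difference between the KO effects at both ages, 1 member was called, Frzb. The fold change at 25 weeks was lower than that at 8 weeks by -2.79 ± 0.41 (log2, SE; adjusted p = 0.0307), where 0.198% of all genes were called. This call was lost without 9 of the 11 libraries in turn (adjusted p 0.0502 to 0.211), with the block (-2.81, adjusted p = 0.101) and with library size alone, and its direction was kept in all 18 alternatives. The differences for Wnt4 (-1.64 ± 0.33, adjusted p = 0.0959) and Fzd8 (2.13 ± 0.42, adjusted p = 0.0959) did not pass in this fit. DESeq2 called Wnt4 (-1.64, adjusted p = 9.91e-05), Fzd1 (2.25, 0.0207) and Fzd8 (2.16, 0.000382) beside Frzb, and 1.82% of all genes. With WT and HET libraries pooled as control, Wnt4 (adjusted p = 0.0134) and Fzd8 (0.0175) passed beside Frzb, and with HET as control Wnt4 (0.0201). Over all genes 1.08% passed with the pooled control and 0.281% with HET as control. Without KO replicate 1 of 8 weeks (0.174% of all genes), and without replicates 1 of both genotypes (0.325%), Fzd6 passed beside Frzb.

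WT islets of 25 and 8 weeks were compared as well, but age was not their only difference. The interferon-induced genes summed to 35.21, 1882 and 1907 CPM in WT libraries at 8 weeks. In WT libraries at 25 weeks they summed to 24.91 to 40.55 CPM, so age and this split cannot be told apart. The HET libraries at 8 weeks, set against the same WT libraries, all had low levels of these genes. edgeR called 0 members and 0% of all genes, 5 members had an unadjusted p under 0.05 (10.2% of all genes), and DESeq2 called 0 members (0.744% of all genes). HET against WT likewise gave 0 calls by edgeR at both ages (0% of all genes), with 3 members at an unadjusted p under 0.05 at 8 weeks (14.6% of all genes) and 2 at 25 weeks (1.12%). DESeq2 called Wnt7b at 8 weeks (2.16% of all genes) and no member at 25 weeks (0.0159%). Wnt7b had 3.68 CPM in WT replicate 1, 0.291 and 0.583 CPM in the other WT libraries and 0 to 0.139 CPM in HET libraries, so that this difference rested mostly on 1 WT library. The WT 25-week and 8-week comparison and the KO comparisons share WT libraries.

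Genes that act around these ligands and receptors were followed as well. Of 63 other pathway genes, 62 were tested and 3 were called at 25 weeks (4.84%, against 6.6% of all genes). Wls, the carrier that brings Wnt proteins to the cell surface, had 222, 207 and 191 CPM in WT libraries and 73.7 and 92.8 CPM in KO libraries, a fold change of -1.37 ± 0.22 (log2, SE; adjusted p = 0.00473). Gpc3, a glypican that holds Wnt proteins at the membrane, had 4.14, 1.43 and 2.40 CPM, and 17.0 and 13.5 CPM (2.51 ± 0.44, adjusted p = 0.0081). Apcdd1, a membrane-bound antagonist, had 1.53, 2.11 and 1.55 CPM, and 5.25 and 8.84 CPM (1.96 ± 0.48, adjusted p = 0.0382). None of the 8 co-receptors, the 16 cytoplasmic and nuclear components, the 9 planar polarity genes or the 5 receptor turnover genes was called. Of 9 targets that the pathway induces in many tissues 0 were called by edgeR, with 4 at an unadjusted p under 0.05 (20.3% of all genes). In 7 of them both KO libraries lay above all WT libraries, where 24.7% of all genes did so. At 8 weeks none of the 62 was called.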

How the data were processed

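The 16 bulk libraries (6 groups of wild-type, heterozygous and βEedKO islets) and the segmentation of normal islet chromatin were used. The authors deposited raw read counts per gene; per the labels, TopHat2 2.0.13 mapped the reads to GRCm 38 and featureCounts of Subread 1.5.0-p1 made the counts. Per the study's methods the gene models were those of Gencode; strand use is not given in the sources used here. The authors also deposited EpicSeg states as letters for segments made of 200 bp bins on the 19 autosomes. Other data of the series were not used here.

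Symbols and start sites came from Gencode M21 by identifier (47224 of 47937 matched, 713 not). Counts were tested in R 4.3.3 with edgeR 4.0.16: TMM factors, filterByExpr by group, quasi-likelihood test, Benjamini-Hochberg adjustment over all genes, called at an adjusted p under 0.05. WT and KO at both ages and the difference between the ages were fitted in 1 model of 4 groups (11 libraries, 18685 genes, biological coefficient of variation 0.456), and HET in 1 model of all 6 groups (18828 genes), whose TMM factors also gave the CPM. Each SE was derived from the fold change and the F statistic (size of the change over the root of F). The scripts were tested on simulated counts. Totals of 4645393 to 22925359 counts per library set the precision.

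All 38 genes are accounted for; fold changes are printed for those with an adjusted p under 0.05 in a KO comparison or a group mean of at least 10 CPM, and beside values that need them. The members, the lists and the tests were chosen with earlier results of these data known. Libraries of a group differed by more than sampling noise, and p-values measure the spread between these libraries. The labels do not say that a replicate number marks a litter or batch. Same-numbered WT and KO libraries deviated together from their group means (correlations of 0.579 and 0.302 at 8 weeks, 0.273 and 0.403 at 25 weeks, over 18828 genes), and differently numbered ones gave -0.599 to 0.571. The blocked fit was an alternative, beside scaling by library size alone, DESeq2 1.42.0, no filter, other controls and leaving out each library.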

Additional observations from a re-analysis of the deposited data

Results flagged for a closer look

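Frzb, the secreted Frizzled-related antagonist, was singled out because its KO effect differed between the ages by a test of the difference itself. The fold change at 25 weeks minus that at 8 weeks was -2.79 (log2, edgeR, adjusted p = 0.0307). All KO libraries lay below all WT libraries at both ages, as for 15.9% of all genes at 25 weeks and 4.86% at 8 weeks. No group of libraries was large enough to be screened for single outlying samples, since none held over 3.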

How the results depend on the processing

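Over all alternatives, the directions of the 8 calls at 25 weeks did not turn, and Fzd1 and Frzb stayed past the threshold in all 19. At 25 weeks the count of members called higher (6) was 10 with DESeq2 and with no filter on low counts, 12 with WT and HET pooled as control, 2 with the replicate block and, in an alternative chosen after the data were seen, 12 without both replicates 1 at 8 weeks; it ran from 1 to 10 without 1 library. The count called lower (2) was 1 with library size alone and ran from 1 to 2 without 1 library. At 8 weeks the count higher (0) was 3 with DESeq2, 4 with the pooled control and 3 with HET as control, and the count lower (0) was 1 in each of these and without both replicates 1; both ran from 0 to 1 without 1 library. The count for the difference between the ages (1) was 0 with library size alone and with the replicate block, 4 with DESeq2, 3 with the pooled control, 2 with HET as control and 2 without both replicates 1, and ran from 0 to 2 without 1 library. For HET against WT at 8 weeks it (0) was 1 with DESeq2 (2.16% of all genes). The difference between the ages was called for 0.0589% of all genes with library size alone and 0.0107% with the block, against 0.198%. Over all genes, higher or lower, the calls moved too from those of the main fit. At 25 weeks they were 11.2% with DESeq2, 4.44% with no filter, 14.1% with the pooled control and 13.9% without both replicates 1, against 6.6%. They were 4.73% with library size alone and 5.5% with the block. At 8 weeks they were 2.1% with DESeq2, 2.67% with pooled control, 4.74% with HET as control and 0.468% without both replicates 1, against 0.434%. The cause of these changes was not tested. The block changed no other call.

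Signs turned only in comparisons in which the gene was not called (log2 fold changes). With library size alone these were at 25 weeks Fzd5 (0.29) and Sfrp5 (0.0157), and at 8 weeks Fzd4 (0.11), Fzd7 (0.0961) and Sfrp5 (0.13). With the replicate block they were Fzd5 (0.56) and Fzd7 (-0.12) at 25 weeks, and Wnt4 (-0.00479), Fzd3 (0.0415), Fzd5 (-0.0321) and Fzd7 (0.0409) at 8 weeks. With HET as control they were Sfrp5 (0.14) at 25 weeks and Fzd7 (0.0239) at 8 weeks. Without 1 library the ranges at 25 weeks were -0.42 to 0.54 for Fzd4, -0.43 to 0.44 for Fzd5, -0.28 to 0.37 for Fzd7 and -0.43 to 0.23 for Sfrp5. At 8 weeks they were -0.053 to 0.13 for Wnt4, -0.27 to 0.52 for Fzd5 and -1.18 to 0.60 for Sfrp5. Where 1 KO library of 25 weeks was left out, the other was assumed to vary like the remaining groups. There were 2 KO libraries at 25 weeks, and whether more libraries or reads would change the calls was not tested.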
